A study of Mus musculus with 16 samples.

Results

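The regions described here carried H3K27ac in common dendritic cell progenitors (CDP) and had at least 2-fold less of it in both of their mature progeny, the plasmacytoid dendritic cell (pDC) and the classical dendritic cell (cDC). There were 4607 of them among 75217 autosomal regions of the list of differences between CDP and cDC, or 6.12%, and the 4 deposited lists together held 273958 regions. The members were chosen by measured values. A member was an autosomal region of the CDP and cDC list with a mean CDP signal of at least 100 and a ratio of CDP to cDC of at least 2. The region of the CDP and pDC list that overlapped it most had to cover at least 50% of it and to have a ratio of CDP to pDC of at least 2. A candidate was dropped where its most overlapping region in the MPP and CDP list differed 2-fold or more between CDP and multipotent progenitors (MPP). Losses to cDC and pDC are therefore given as descriptions with no test.

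The mark was profiled by ChIP-seq, in which an antibody pulls down acetylated chromatin for sequencing, in sorted and formaldehyde-fixed cDC, pDC, CDP and MPP from C57BL/6 mice. Each type had 2 libraries, 8 in all. No treatment or allele is named in the labels. Age, sex and number of animals were not stated there either, nor whether libraries of one type had separate sources. The values are scaled signals on no read-count scale, set separately in each list, so levels were compared within a list only and the read depth is unknown.

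H3K27ac is an acetylation of a lysine on histone H3 that marks active promoters and active enhancers, and it is removed by histone deacetylases when such elements are switched off. MPP are early blood progenitors without a fixed lineage. CDP are bone marrow progenitors committed to the dendritic cell lineage, and they still divide. cDC take up and present antigen to T cells, and pDC are known for making large amounts of type I interferon after viral infection. Both mature types leave the progenitor programme, and elements active in progenitors commonly lose acetylation on the way. Genes cannot be given here from position, since the regions are on the mouse build mm9 and an annotation of that build was not used.

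Acetylation at these regions was low in both mature types. Where a region of the MPP and CDP list overlapped the member, that region was within 2-fold between CDP and MPP, as the rule required. In the CDP and cDC list, the median signal over the 4607 regions was 68 in the first-listed and 113 in the second-listed cDC library, against 373 and 399 in the CDP libraries. It was 47 and 58 in the pDC libraries of the CDP and pDC list, against 283 and 315 in the CDP libraries. Over the 4079 members with a region in the MPP and CDP list, the medians were 276 and 307 in the CDP libraries, against 332 and 285 in the MPP libraries. The first-listed cDC library was the lower one in most members, since the second exceeded it in 82.9% of them and the median log2 difference was 0.70. The median SD between libraries over the members was 0.55 for cDC and 0.43 for pDC, against 0.25 for CDP in the list with cDC, all on the log2 scale.

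**Figure D1:**
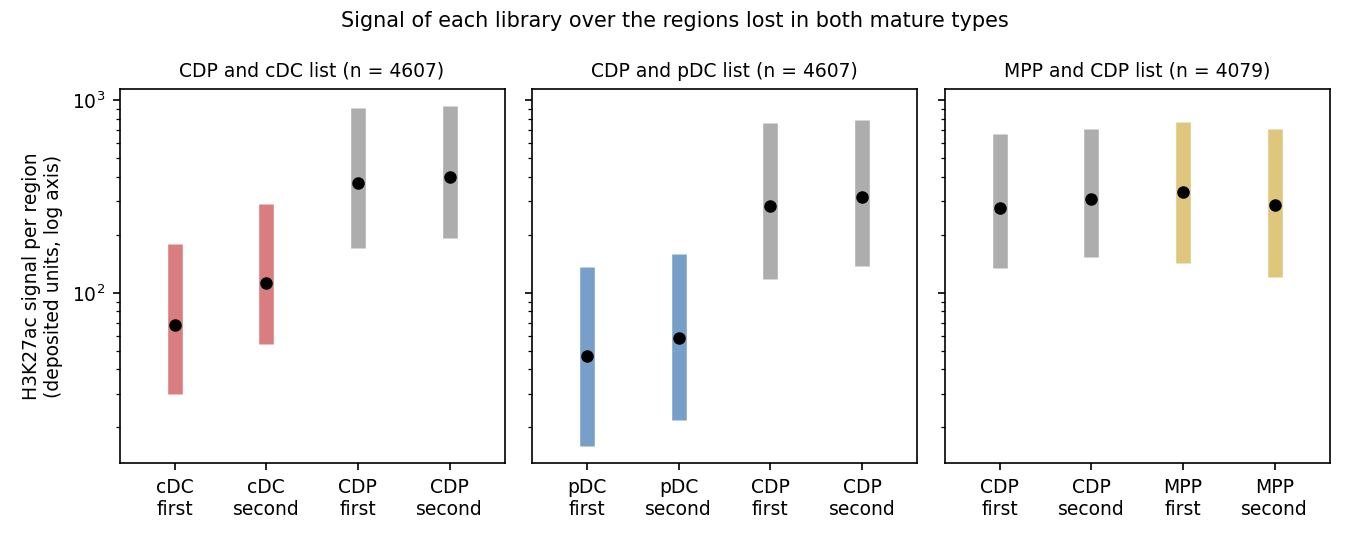
Median (points) and interquartile range (bars) of the deposited H3K27ac signal in each library over the members, on a log axis, in the 3 lists the members were chosen from. Both cDC libraries, with medians of 68 and 113, and both pDC libraries, with medians of 47 and 58, lie below the CDP libraries of the same list, while CDP and MPP medians range from 276 to 332 in the MPP and CDP list.

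Of the signal that CDP had over the members, 29.1% was present in cDC and 22.3% in pDC. The median ratio of CDP to cDC was 3.68, with an interquartile range of 2.61 to 6.05, and the median ratio of CDP to pDC was 4.98, with an interquartile range of 3.08 to 9.95. All ratios of single regions are those of group means after adding 1. Ratios of CDP to a mature type are at least 2 by construction. Over all autosomal regions, the median log2 ratio of CDP to cDC was 0.18 and that of CDP to pDC was -0.03. When libraries were scaled to equal autosomal totals they were 0.10 and 0.26, a shift of all regions that also moves the members. Both CDP libraries lay above both cDC libraries in 4539 members, or 98.5%, against 36.2% of all autosomal regions of that list. Both lay above both pDC libraries in 4546 members, or 98.7%, against 38% of all. These shares follow from the choice of members. In 19 members the libraries overlapped in both lists.

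Losses ran from the threshold to near absence of signal, and most were moderate. CDP exceeded both mature types at least 4-fold in 1582 members (34.3%), at least 8-fold in 460, at least 16-fold in 116 and at least 32-fold in 23. The loss was larger to pDC than to cDC in 65.2% of members, with each loss taken from its own list, whose bounds and scaling differ. That share was 78.6% with equal autosomal totals and 48.4% without the second-listed cDC library, the higher of the 2, so which mature type lost more depended on that library. Both cDC libraries were listed at 0 in 6 members and both pDC libraries in 49. At the other end, the mean signal was still at least 1000 in both mature types in 112 members.

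**Figure D2:**
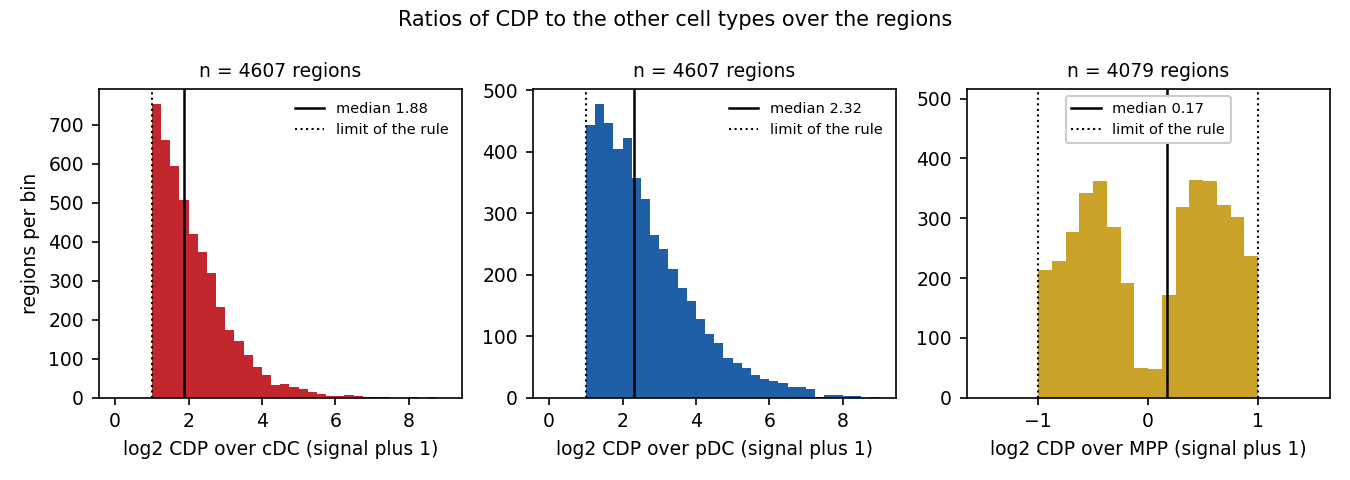
Histograms of the log2 ratio of CDP to cDC, to pDC and to MPP over the members, with the median as a solid line and the limits of the rule as dotted lines. Losses pile up next to the limit, with medians of 1.88 for cDC and 2.32 for pDC, and the ratio to MPP has a dip around 0.

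The 6 members with the highest CDP signal were long regions on chromosomes 13, 11 and 5 that kept sizeable acetylation after maturation. On chromosome 13, the region from 23622701 to 23632000 reached 11550 and 17575 in the cDC libraries and 23764 and 38382 in the CDP libraries, a ratio of CDP to cDC of 2.13. In the CDP and pDC list the pDC libraries reached 9408 and 6660 and the CDP libraries 23458 and 38079, a ratio of CDP to pDC of 3.83. The libraries of the mature types lay below both CDP libraries, at the member with the highest mean in CDP. On the same chromosome, the regions from 22125651 to 22137250 and from 21806701 to 21815700 had ratios of CDP to cDC of 2.11 and 2.13 and ratios of CDP to pDC of 4.50 and 3.65. In all 3, the second-listed library was the higher one in CDP and in cDC, and the first-listed one in pDC.

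On chromosome 5, the region from 3488501 to 3506150 was the longest member at 17.65 kb. The cDC libraries read 3515 and 6960 and the CDP libraries 28375 and 26632. In the other list the pDC libraries read 2622 and 2405 and the CDP libraries 24031 and 22925. The groups did not overlap, and the ratios were 5.25 to cDC and 9.34 to pDC. In the MPP and CDP list the CDP libraries read 4948 and 4780 and the MPP libraries 7826 and 5859, over a region with other bounds. On chromosome 11, the region from 86401451 to 86412850 read 3089 and 6393 in the cDC libraries and 33465 and 22990 in the CDP libraries, a ratio of 5.95. In the other list the pDC libraries read 5501 and 5693 and the CDP libraries 37712 and 30206, a ratio of 6.07. The region beside it, from 86388451 to 86397750, had ratios of 2.33 to cDC and 2.996 to pDC. Both lie in a window of positions where listed regions pile up on many chromosomes, described with the stretches.

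**Figure D3:**
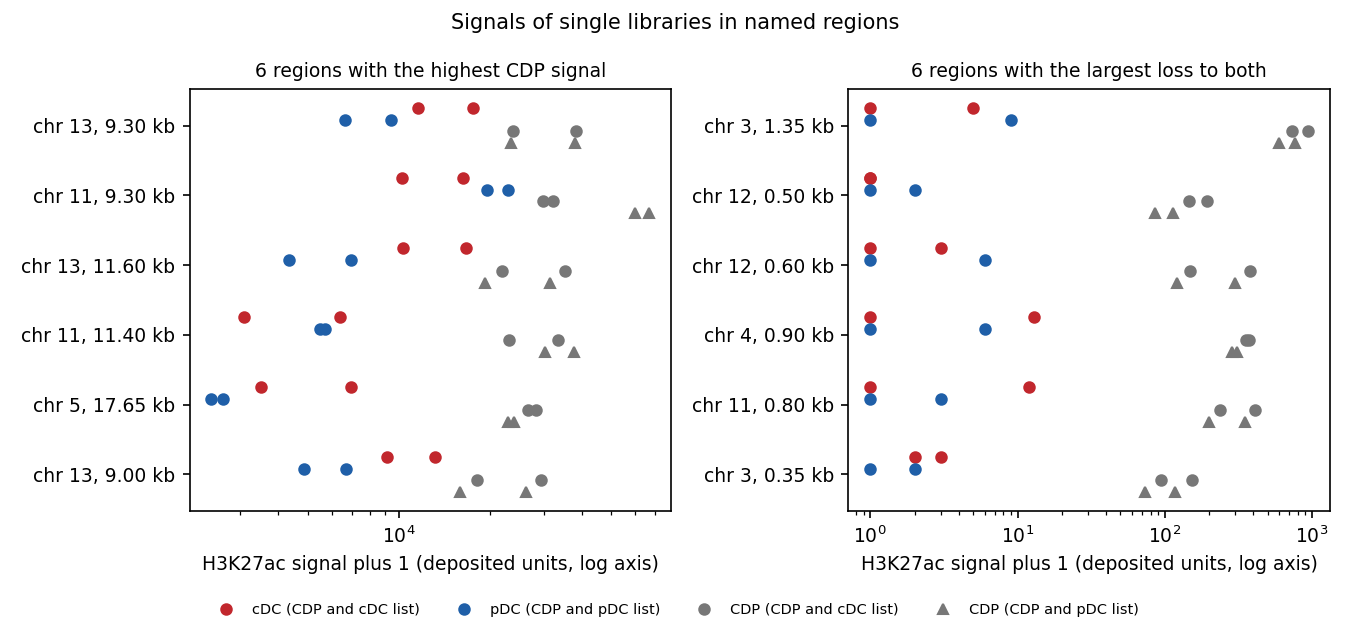
Signals of single libraries plus 1, on a log axis, in the 6 members with the highest CDP signal (left) and the 6 with the largest loss to both mature types (right), each row named by chromosome and length. In all 12 the CDP libraries lie above those of the mature type in the same list. On the left no library of a mature type is below 2405, and on the right none is above 12.

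The 6 members with the largest loss to both types, measured by the smaller of their ratios, were 350 to 1350 bp long and close to empty in mature cells. The region on chromosome 3 from 115397751 to 115399100 read 0 and 4 in the cDC libraries and 936 and 725 in the CDP libraries, a ratio of 277. The pDC libraries read 0 and 8 and the CDP libraries of that list 770 and 597, a ratio of 137. The CDP libraries read 827 and 621 and the MPP libraries 813 and 1011 in the MPP and CDP list. Acetylation there was thus present in both progenitors and close to 0 in both mature types, and no other member of the 6 had as high a CDP signal. The region on chromosome 4 from 136397251 to 136398150 read 0 and 12 in the cDC libraries and 356 and 374 in the CDP libraries, with 0 and 5 for pDC and 286 and 308 for CDP in the other list. On chromosome 11, the region from 81855251 to 81856050 read 0 and 11 in the cDC libraries and 408 and 238 in the CDP libraries, with 0 and 2 for pDC and 349 and 199 for CDP in the other list. On chromosome 12, the region from 25419551 to 25420050 was listed at 0 in both cDC libraries and read 146 and 194 in the CDP libraries, so no ratio to cDC is given. Low values weigh on such ratios, because 1 unit more or less in a mature library changes them.

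Members ranged from 250 bp to 17.65 kb in length, with a median of 850 bp and an interquartile range of 500 to 1550 bp. The median over all autosomal regions of the list was 500 bp. Longer regions were more often members. They made up 3.02% of the regions below 500 bp, 9.44% of those from 1 to 2 kb and 18.3% of those of 5 kb or more, which were 50 of 273. The rule's minimum CDP signal removes many short regions. Among regions that met this minimum, the members made up 6.41% of those below 500 bp, 9.68% of those from 1 to 2 kb and 18.3% of those of 5 kb or more. The loss was least deep in the longest regions. Members of 5 kb or more kept 36.4% of the CDP signal in cDC and 26.0% in pDC, against 26.0% in cDC and 21.8% in pDC for members below 500 bp. The median ratio of CDP to cDC was 2.74 in members of 5 kb or more and 3.78 in members below 500 bp.

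The members had been filtered to differ less than 2-fold between CDP and MPP, and within that range they lay on either side. Of the 4079 members with an overlapping region in the MPP and CDP list, 2127 had a higher mean in CDP and 1952 a higher mean in MPP. With equal autosomal totals these numbers were 2187 and 1892. Over the members, log2 ratios of CDP to MPP had a median of 0.17. Equal totals gave 0.30 with the same members and -0.058 with members chosen anew. Leaving out the first-listed MPP library, also with members chosen anew, gave -0.035. Which of the 2 was higher on balance was thus not settled. In 462 members the means were within 1.19-fold of each other. That list holds regions called as differing, so few regions near equality can be in it. Both CDP libraries exceeded both MPP libraries in 1296 of the 4079, against 15991 of all 59626 autosomal regions of the list (26.8%). Both MPP libraries exceeded both CDP libraries in 1375 of the 4079, against 19301 of the 59626 (32.4%). Of all regions of that list, 25.95% differed 2-fold or more. Candidates overlapping such regions most had been dropped, so these counts do not compare like regions. The overlapping region covered at least 50% of the member in 3162 of the 4079. The other 528 members had no region in that list, which does not show equal signal. They were short, with a median of 400 bp, and weak, with a median CDP signal of 130, against 472 for the members higher in CDP and 470 for those higher in MPP. The median log2 ratio of CDP to cDC was 1.83 for members higher in CDP than MPP, 1.96 for those higher in MPP and 1.89 for those with no region. The median log2 ratio of CDP to pDC was 2.31 for members higher in CDP than MPP, 2.32 for those higher in MPP and 2.32 for those with no region.

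The contrast between pDC and cDC was the only listed one that did not enter the choice of members, although the same libraries entered it through their ratios to CDP. A region of the cDC and pDC list covered at least 50% of the member in 235 members, or 5.10%, against 62.1% of all autosomal regions of the CDP and cDC list. This share is not independent of the rule, which chose regions with less signal in both mature types than in CDP. It was also low in the candidates removed by the MPP criterion, at 4.60% of those higher in CDP and 2.47% of those higher in MPP. No overlap at all was found for 3360 members, or 72.9%. Absence from a list of differences does not show that pDC and cDC were alike. The 235 members had a median log2 ratio of pDC to cDC of -0.66, against 0.20 over all regions of that list. With equal autosomal totals, the same 235 members had a median of -1.12, against -0.26 over all. Without any single cDC or pDC library, the median of the same 235 members ran from -0.87 to -0.29. With members chosen anew under equal totals the median was 0.29, so its sign depended on which members were chosen.

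Signals of pDC and cDC were compared by limma on log2 values over all 66319 regions of the list, with Benjamini-Hochberg adjustment. The 235 members were long and strong ones. Those called lower, called higher and not called had median lengths of 1500 to 2150 bp. Their median CDP signals were 1428 to 2490, against 355 and a median length of 800 bp in the other 4372 members. The shares of all regions given for comparison were not matched for length or signal. Of the 235 members, 116 (49.4%) were called at an adjusted p under 0.05, against 32.6% of all regions. In pDC, 74 (31.5%) were lower, against 9.32% of all, and 42 (17.9%) were higher, against 23.3% of all. With equal totals 135 of the same members were lower (57.4%, against 27.7% of all) and 36 higher (15.3%, against 21.4% of all). With members chosen anew under those totals, 93 of 305 were lower, or 30.5%, close to the 27.7% of all, and 80 were higher, or 26.2%. Over all regions of the list, 18385 were lower and 14192 higher with equal totals, and 6178 lower and 15427 higher as deposited. The selected members are bounded by what the rule allows, since either mature type must stay below CDP. Both pDC libraries lay below both cDC libraries in 121 of the 235, against 26% of all regions, and above both in 74, against 41.8% of all. The 74 members lower in pDC had a median length of 2150 bp and median ratios of CDP of 2.27 to cDC and 8.37 to pDC. The 42 members higher in pDC had a median length of 1950 bp, and their median ratios of CDP ran the other way, at 5.37 to cDC and 2.38 to pDC. These ratios come from the same cDC and pDC libraries as the split, so they add no separate evidence. The remaining 119 did not pass the threshold. With only regions of a mean signal of at least 100 tested, 122 of the 235 were called, or 51.9% against 35.0% of those tested. The share called changed when a library was left out, with members chosen anew and a lone library in a group. Without the first-listed pDC library 49 of 214 members were called, or 22.9% against 21.9% of all regions, and without the second-listed one 77 of 322, or 23.9% against 21.3%. Without the second-listed cDC library 208 of 660 were called, or 31.5% against 35.8% of all. The share was thus near or below that of all regions in these 3 runs, and only without the first-listed cDC library, with 74 of 157 or 47.1% against 29.7%, did it stand well above it. Each of these 4 runs applied the rule anew to shared libraries, so they give no independent support for a lower signal in pDC. Counting any overlap with a listed region, 354 of 1247 members were called, or 28.4%, below the 32.6% of all regions.

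Among the members lower in pDC, those with the lowest ratios were nearly empty in pDC and kept acetylation in cDC. On chromosome 1, the region from 94638301 to 94639800 read 12 and 8 in the pDC libraries and 531 and 464 in the cDC libraries. Its log2 ratio of pDC to cDC was -5.52 ± 0.58 (SE, n = 2 libraries each, limma adjusted p = 0.000317). On chromosome 6, the region from 50204051 to 50206350 read 61 and 80 in the pDC libraries and 762 and 972 in the cDC libraries, a log2 ratio of -3.60 ± 0.41 (limma adjusted p = 0.000408). In the CDP and cDC list the chromosome 1 region read 550 and 531 in the cDC libraries and 848 and 1364 in the CDP libraries, so its loss to cDC was just past the limit at a ratio of 2.04.

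The members with the highest ratios of pDC to cDC had lost most of their signal in cDC and less of it in pDC. On chromosome 1, the region from 129204801 to 129207000 read 712 and 640 in the pDC libraries and 37 and 85 in the cDC libraries, a log2 ratio of 3.56 ± 0.50 (limma adjusted p = 0.000988). In the lists with CDP, the pDC libraries read 266 and 363 and the CDP libraries 1126 and 779, while the cDC libraries read 85 and 161 and the CDP libraries 1943 and 1539. Bounds and scaling differ between the lists, so pDC values are compared within a list only. On chromosome 7, the region from 20415601 to 20418250 read 2049 and 3207 in the pDC libraries and 141 and 410 in the cDC libraries, a log2 ratio of 3.41 ± 0.50 (limma adjusted p = 0.00117). On chromosome 2, the region from 27337701 to 27339100 read 2339 and 2594 in the pDC libraries and 197 and 480 in the cDC libraries. In these 3 regions the groups did not overlap.

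**Figure D4:**
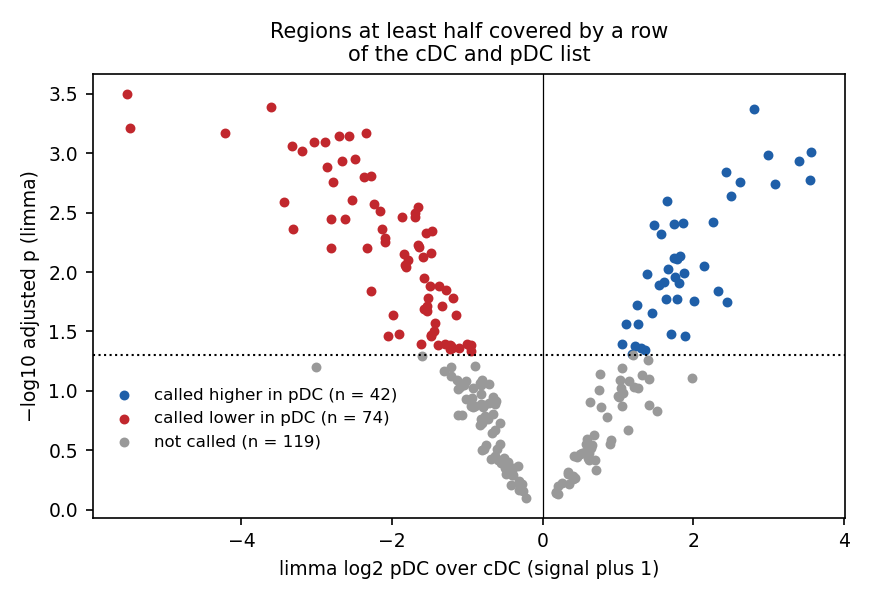
The 235 members at least 50% covered by a region of the cDC and pDC list, by limma log2 ratio of pDC to cDC and −log10 of the adjusted p, with the threshold of 0.05 dotted. On the left 74 members are lower in pDC, on the right 42 are higher, and 119 lie below the line.

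Members occurred on every autosome, where they made up 4.62% (chromosome 4) to 7.28% (chromosome 16) of the listed regions, but were not spread evenly along them. Between 85 and 88 Mb lay 659 members, or 14.3%, with 524 of them on 7 chromosomes (6, 7, 8, 11, 12, 15 and 17). Regions of every list piled up at these positions on many chromosomes at once. The window held 10.1% of the autosomal regions of the CDP and cDC list, 8.38% of the CDP and pDC list, 9.77% of the MPP and CDP list and 6.55% of the cDC and pDC list. In the CDP and cDC list, the position bin from 86 to 87 Mb held 3826 regions summed over chromosomes, and no 1 Mb bin outside the window exceeded 888. The window was noticed in these data and its bounds were set afterwards. Members within it were short and weak, with a median length of 500 bp and a median CDP signal of 193, against 1000 bp and 455 outside it. Of the autosomal regions in the window 8.65% were members, against 5.84% outside. Among regions that met the rule's minimum CDP signal, the shares were 15.4% in the window and 7.82% outside. How the pile-up arose was not tested. Without it there were 3948 members, with median log2 ratios of CDP of 1.92 to cDC and 2.41 to pDC.

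**Figure D5:**
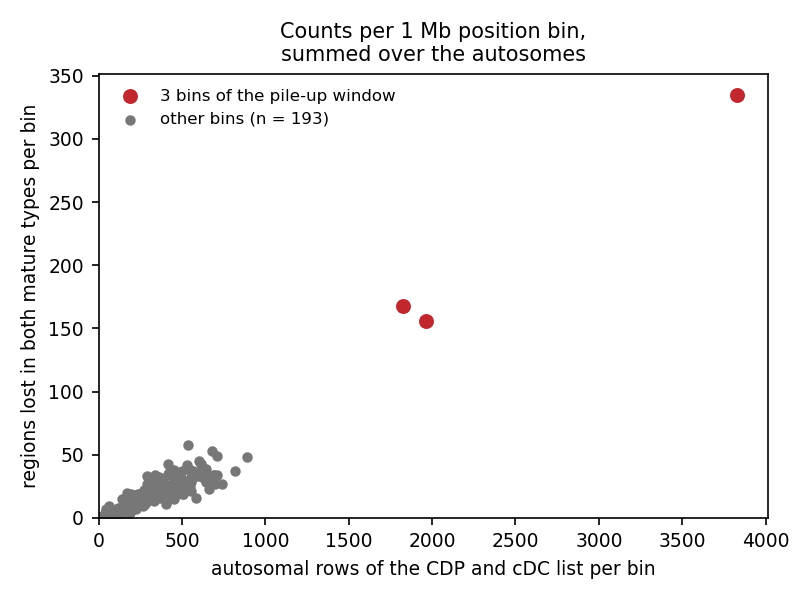
Members against all autosomal regions of the CDP and cDC list in bins of 1 Mb by position, summed over the autosomes. The 3 bins of the window, with 156, 335 and 168 members, stand apart from the other 193 bins, which reach 58 members.

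Most members stood alone. Joining members less than 10 kb apart gave 3597 stretches, of which 2958 held a single member, and 35.8% of members shared a stretch with another. Outside the window this share was 29.9%. Of the 36 stretches with 5 or more members, 24 started in the window, among them the 6 ranked highest by members. The stretch with most, on chromosome 11 from 86372401 to 86490400, held 22 members that covered 63.25 kb. Their summed signals were 25660 and 45286 in the cDC libraries and 116781 and 104305 in the CDP libraries. The pDC libraries of the CDP and pDC list summed to 35801 and 33475 and the CDP libraries to 137829 and 137794. The ratios of these sums were 3.12 to cDC and 3.98 to pDC, and this stretch had much more signal than the next ones in the window. The stretches on chromosome 15 from 86170801 to 86259100 and on chromosome 12 from 87169901 to 87253500, with 19 members each, covered only 12.35 and 11.75 kb and had sums of 4498 and 5529 and of 4684 and 5556 in CDP.

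Outside the window, the stretches with most members were on chromosomes 17 and 2. The chromosome 2 stretch from 167565701 to 167599150 had the highest ratios among the 6 ranked highest there, over 6 members and 9.4 kb. Its cDC libraries summed to 238 and 883 and its CDP libraries to 5788 and 6928, and in the other list the pDC libraries summed to 433 and 432 and the CDP libraries to 4772 and 5856. The ratios were 11.3 to cDC and 12.3 to pDC, and all 9 listed regions in the stretch were higher in CDP than cDC. On chromosome 17, the stretch from 29627651 to 29648750 held 6 members over 14.5 kb, with sums of 4234 and 11212 in the cDC libraries and 18073 and 21564 in the CDP libraries, a ratio of 2.57. The stretch from 28143151 to 28167200, with 5 members over 13.7 kb, had ratios of 4.07 to cDC and 5.17 to pDC. On chromosome 3, the stretch from 27555351 to 27591450 had 5 members, with ratios of 4.24 to cDC and 5.36 to pDC. On chromosome 9, the stretch from 21254251 to 21269100 had 5 members, with ratios of 3.86 to cDC and 5.11 to pDC.

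The criteria were met in steps. In the CDP and cDC list 11898 regions met the criteria against cDC, and 9426 of these were at least 50% covered by a region of the CDP and pDC list. Of those, 7007 were also at least 2-fold lower in pDC than CDP. The other 2419 were lower in cDC but not so in pDC, and in 741 of them pDC exceeded CDP 2-fold or more. The MPP criterion then removed 2400 regions, of which 1632 were higher in CDP than MPP and 768 higher in MPP. The median log2 ratio of CDP to cDC was 1.88 in the members, 1.97 in the regions removed as higher in CDP and 2.29 in those removed as higher in MPP. Members were longer, with medians of 850 bp, 800 bp and 750 bp in the same order. Regions of 5 kb or more made up 1.09% of the members, against 0.55% and 0.26% of the regions removed as higher in CDP and in MPP. These differences were not tested, because regions of the same libraries are not replicates.

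At the thresholds, members and other regions differed little. The members nearest the limit against cDC had a ratio of 2.00, such as the region on chromosome 6 from 54076551 to 54077400, with 127 and 162 for cDC and 346 and 234 for CDP. Just outside, 404 and 734 for cDC and 1119 and 1158 for CDP gave 1.999 on chromosome 12 from 92823051 to 92825000. Just inside the limit against pDC, chromosome 1 from 155348751 to 155349400 read 69 and 140 for pDC and 166 and 254 for CDP. Just outside it, chromosome 4 from 40790851 to 40793200 read 394 and 510 for pDC and 913 and 896 for CDP. At the minimum CDP signal of 100, the weakest members were 300 bp long, such as chromosome 3 from 85903701 to 85904000 with 3 and 34 for cDC and 97 and 103 for CDP. At the MPP limit, chromosome 3 from 95998551 to 95999750 stayed in with 645 and 618 for CDP and 324 and 307 for MPP, and chromosome 11 from 98853301 to 98853600 was dropped with 59 and 75 for CDP and 43 and 23 for MPP.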

How the data were processed

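Per the submitters' processing notes, BWA 0.6.1 and the build mm9 were used, and the series title names the differential peak caller THOR. The authors' deposited lists give per region its bounds, scaled signals of 4 libraries in a unit other than read counts, and −log10 of a p-value. Which cell type a value belongs to follows from the list's name. In regions with identical bounds in 2 lists, the SD of log2 differences was 0.058 or less for the 10 same-named pairs of libraries and 0.453 or more for the other 86.

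Members and lists were chosen with earlier results of these data known. Overlap went to the region sharing most base pairs, and any overlap counted for the MPP and CDP list. The regions named are from the 6 members with the highest CDP signal, the largest smaller ratio or the greatest length, the 6 stretches with most members, and the 5 lowest and 5 highest called ratios of pDC to cDC. Some regions just inside and just outside the thresholds are named too, and those outside are not members. Stretches outside the window were ranked after seeing the data.

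limma 3.58.1 in R 4.3.3 (lmFit, eBayes with trend) was run on log2(signal + 1), since scaled signals do not suit a count model. Each p-value sets the difference between pDC and cDC against the spread between 2 libraries per type, moderated by eBayes over all regions. That spread may be technical. An exact two-sided permutation test of 2 against 2 cannot go below 0.333. The rule and limma were tested on simulated data. Coordinates are 1-based. Input and RNA samples and an mm9 annotation were not used here.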

Additional observations from a re-analysis of the deposited data

How the results depend on the processing

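Over the alternatives run, the count of 4607 members stayed within 1.5 times except at a ratio of at least 3, which kept 2462 members in 2112 stretches, with median log2 ratios of 2.45 to cDC and 2.92 to pDC by construction. Leaving out each library in turn gave 3809 members (without the first-listed cDC library) to 5695 (without the second-listed one). With equal autosomal totals the rule chose 4600 regions, 4057 of them shared, which is 88.1% of the deposited and 88.2% of the equal-total members.

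The contrast between pDC and cDC was the least stable. With members chosen anew, the median of -0.66 became 0.29 with equal totals, 0.10 without the first-listed cDC library and 0.19 with the second-listed pDC library left out, and leave-one-out medians ran from -0.69 to 0.19. The members also changed in these. With the same 235 members kept, the 3 medians were -1.12, -0.87 and -0.73. The number called, 116, was 15 of 26 at a ratio of at least 3 (57.7%, against 32.6% of all regions) and 76 without a trend in limma. It was 354 of 1247 with any overlap (28.4%, against 32.6% of all regions, added after seeing the data). By separate libraries it was 195 of 235 (83.0%, against 67.9% of all). Without a trend the share was 32.3%, against 27.3% of all. Leave-one-out counts ran from 49 of 214 to 208 of 660. The first was 22.9%, against 21.9% of all, with the first-listed pDC library left out. The second was 31.5%, against 35.8% of all, with the second-listed cDC library left out. Members were chosen anew in each of these runs. Whether the excess of 49.4% over 32.6% of all rested on single libraries was therefore not tested with the same 235 members. The excess was also not set against regions of like length and signal. A lone library is assumed in the leave-one-out runs to vary like the other group. With equal totals 93 of 305 were lower (30.5%, against 27.7% of all) and 80 higher (26.2%, against 21.4% of all). For CDP over MPP, the median log2 ratio of 0.17 also turned with members chosen anew. It was -0.058 under equal totals and -0.035 when the first-listed MPP library was left out. The same members kept gave 0.30 under equal totals. No paired analysis was possible because the deposited values carry no replicate number. Limits are 2 libraries per type, unknown depth and, for single regions, signals near 0.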
